A study of Mus musculus with 33 samples.

Results

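Blastocysts cloned from the nuclei of female (XX) Purkinje neurons were compared with blastocysts cloned from cumulus cells. The members were 7 of the 33 single-embryo arrays of the series, chosen by their labels alone: 4 XX Purkinje clones and 3 cumulus clones. All 7 embryos were female and of the strain (C57BL/6NxDBA/2)F1. Each clone had received 50 nM trichostatin A (TSA), which blocks histone deacetylases: 1 h while the egg was activated, 5 h together with cytochalasin B and a final 2 h, and had grown in culture for 96 h. Between both groups of embryos the labels name no difference other than the nuclear donor.

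Purkinje cells are the large, non-dividing output neurons of the cerebellar cortex. Cumulus cells are somatic cells that surround the oocyte in the follicle and are a long-used donor for cloning mice. In nuclear transfer the oocyte's cytoplasm has to replace the donor's expression programme with that of an embryo, and by the blastocyst stage the embryo has formed an outer trophectoderm, a pluripotent epiblast and a primitive endoderm. A blastocyst holds few cells, so its RNA was amplified in a pair of linear rounds before hybridisation to an Agilent array.

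The 2 groups came from different array sets. Per the series' design text the cumulus arrays, like the 3 arrays of XX embryos from in vitro fertilisation (IVF), came out of the laboratory's own previous study. Per the file headers the Purkinje arrays lay on 1 slide and were read on 1 scan day with scanner G2505C, and the cumulus arrays lay on another slide, scanned on another day with scanner G2505B and an older version of the scanning software. Donor cell, slide, scan day and array set cannot be told apart in this comparison. The values of 4 XX CA1 clones are therefore given beside it. CA1 pyramidal cells are neurons of the hippocampus, and these clones were female, had the same strain and TSA treatment, and were measured in the same array set as the Purkinje clones. The Purkinje minus CA1 differences share the Purkinje arrays with the main comparison, so both are set side by side and not counted as separate evidence. The labels do not give the number of donor animals or transfer sessions, so p-values measure the spread between single embryos, which may be technical in part. Embryos with fewer cells of a type and embryos with less RNA per cell cannot be told apart in such data.

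Levels are log2 of a probe's processed signal over the 75th percentile of its array, so 0 is the level at the 75th percentile and -3.43 is a shared floor under which values were not ordered. The 75th percentile signal was 353.8 to 838 on the Purkinje arrays and 999.7 to 1059.4 on the cumulus arrays, and 3 of the 4 Purkinje arrays (replicates 2, 3 and 4) were under 500. Between 50.6% and 56.3% of the probes were well above background on the Purkinje arrays and between 55.5% and 57.6% on the cumulus arrays. Across genes, replicates correlated at r = 0.963 to 0.98 among the Purkinje clones (6 pairs) and at 0.961 to 0.965 among the cumulus clones (3 pairs), against 0.935 to 0.952 for the 12 pairs between the groups. The median standard deviation of a gene was 0.359 in the Purkinje clones and 0.287 in the cumulus clones.

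Of 15792 genes tested, 2954 (18.7%) were called different at an adjusted p under 0.05 by limma, 2267 higher (14.4%) and 687 lower (4.35%) in the Purkinje clones. The values of both groups did not overlap for 4405 genes (27.9%). The same model called 1740 genes (11%) between Purkinje and CA1 clones, of which 977 were higher and 763 lower in the Purkinje clones. It called 3049 genes (19.3%) between CA1 and cumulus clones, which again crossed the array sets, and 839 genes (5.31%) between cumulus clones and XX IVF embryos within the earlier set. A TSA treatment and a culture time are recorded for the clones and not for the IVF embryos, so clones and IVF embryos are not compared at equal treatment.

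Of the 2267 calls upwards, 1191 were of strongly expressed genes. In the top 25% of genes by mean level 1191 genes were higher and 100 lower, a share of 92.25% higher. In the other 3 level classes of equal size, from the lowest upwards, that share was 71.21%, 55.61% and 69.5%, with no steady rise. The median difference of all genes was 0.14, and 0.44 in that top 25%. This split depended on how arrays were scaled. With each array divided by its median, 319 genes were higher and 2391 lower (11.8% of calls higher, against 76.7%), and the median of all genes moved to -0.31. With quantile normalization 1308 were higher and 893 lower (59.4%). Without Purkinje replicate 2 the counts fell to 1563 and 428, and without cumulus replicate 2 to 1455 and 413. Without the 3 low-signal Purkinje arrays, which leaves 1 Purkinje embryo that is assumed to vary like the other groups, 397 genes were higher and 77 lower. Gene groups are therefore read below against the median of all genes, and a direction that another scaling turned is named with its gene.

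**Figure D1:**
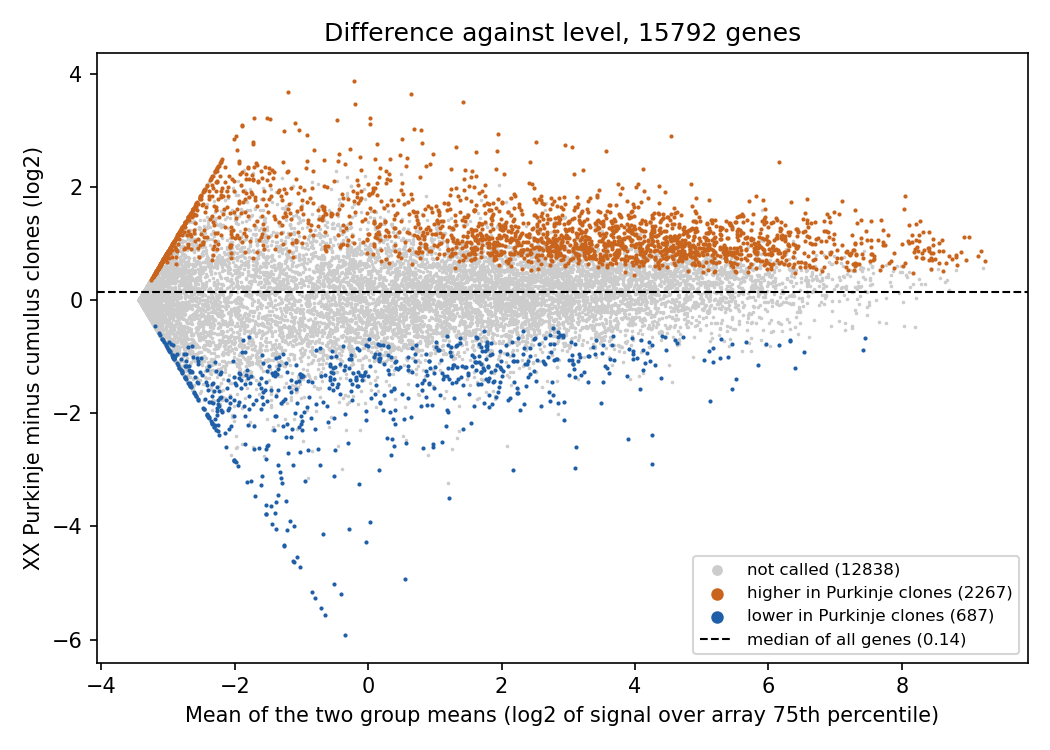
Difference between XX Purkinje and cumulus clones (log2, vertical axis) against the mean of both group means (log2 of signal over the array's 75th percentile, horizontal axis), 1 point per gene. Orange points are the 2267 genes called higher, blue points the 687 called lower and grey points the rest; the dashed line is the median of all genes at 0.14. The calls upwards crowd at high levels, and the largest falls end on the diagonal edge set by the shared floor.

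Genes of sterol and fatty acid synthesis were lower in the Purkinje clones than in the cumulus clones. These pathways make cholesterol from acetyl-CoA through mevalonate and squalene, and long-chain fatty acids from the same precursor, and embryos use both products for membranes. Of 24 cholesterol synthesis and uptake genes measured, 9 fell and 1 rose, against 4.35% and 14.4% of all genes, and the median difference was -0.84. Between Purkinje and CA1 clones 4 of the 24 were called lower and 1 higher, with a median of -0.56 against 0 for all genes. Relative to the XX IVF embryos the list median was 0.73 in the cumulus clones, within the earlier array set (-0.02 for all genes). In the Purkinje clones it was -0.03 relative to the XX IVF embryos, across array sets (0.08 for all genes).

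Cyp51, the sterol 14-demethylase (chromosome 5), read -0.71, -1.87, 0.27 and -0.41 in Purkinje replicates 1 to 4 and 1.31, 1.63 and 1.32 in the cumulus clones. The groups did not overlap, and the level was 4.28-fold lower in the Purkinje clones (-2.10 ± 0.52 SE, adjusted p = 0.00587). Both other Cyp51 probes were lower as well, by -1.61 and -2.74. Nsdhl, an X-linked sterol dehydrogenase, read 0.73, 0.19, 0.92 and 1.48 against 3.20, 2.03 and 2.74 and was 3.55-fold lower (-1.83 ± 0.38, adjusted p = 0.0014). Here too every Purkinje embryo lay under every cumulus embryo. Of its 3 other probes 2 fell by more (-3.02 and -2.26) and 1, near the floor, differed by -0.07.

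Mvd, which makes isopentenyl diphosphate from a mevalonate derivative, read 0.80, 0.06, -0.11 and -0.61 against 1.83, 2.28 and 1.56 (-1.86 ± 0.47, adjusted p = 0.00627). Lss, which closes the sterol rings, read -0.17, 0.09, 0.58 and 0.43 against 1.59, 2.23 and 1.94 (-1.69 ± 0.41, adjusted p = 0.0051). Neither gene's groups overlapped. The calls of Cyp51, Nsdhl, Mvd and Lss were lost in 1 of 22 settings, the fit without the 3 low-signal Purkinje arrays, at differences of -2.13, -1.93, -1.09 and -2.09. Sqle, the squalene epoxidase, differed by -1.58, Mvk, the mevalonate kinase, by -1.59, Fdft1, the squalene synthase, by -1.17 and Tm7sf2, a sterol reductase, by -1.27. Of these, Tm7sf2 alone had overlapping groups. Sqle kept its call in the 22 settings, whereas those of Mvk, Fdft1 and Tm7sf2 were each lost without Purkinje replicate 4 (-1.45, -1.10 and -0.89) and without cumulus replicate 2 (-1.47, -0.97 and -0.93). Mvk was also lost without Purkinje replicate 2 (-1.45) or cumulus replicate 3 (-1.38), Tm7sf2 likewise (-1.15 and -1.38), and Fdft1 without Purkinje replicate 1 (-0.997) or cumulus replicate 1 (-1.17). The exception was Ebp, a sterol isomerase on the X chromosome, which rose by 1.41 ± 0.23 (adjusted p = 0.000184), though it was not called under median scaling (0.71) or normexp (0.71), or without the 3 low-signal Purkinje arrays (0.99). Hmgcs1 was not called, and the probes of Srebf2 disagreed. Hmgcs1, a synthase of the early pathway, differed by -0.01 (95% interval -0.58 to 0.56, adjusted p = 1). Srebf2, the transcription factor that drives the pathway, differed by 0.41 by its brightest probe (-0.22 to 1.04, adjusted p = 0.397) and by 0.39 by another (adjusted p = 0.431). A further, dimmer Srebf2 probe was called lower (-1.49, adjusted p = 0.00194), so no direction is given for this gene.

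The fatty acid enzymes moved the same way. Acaca, the acetyl-CoA carboxylase, read -1.99, -1.93, -1.66 and -2.02 in the Purkinje clones and -0.10, 0.26 and 0.39 in the cumulus clones. The gap between the groups was several times the spread within each, and the level was 4.23-fold lower (-2.08 ± 0.30, adjusted p = 6.92e-05). The call and direction held in all 22 other settings tried apart from the replicate block, with differences from -2.78 to -1.01, although a second probe that lies near the floor differed by 0.05. Scd1, the desaturase that makes oleate, read 3.78, 3.93, 5.15 and 4.05 against 6.05, 6.13 and 5.85 (-1.78 ± 0.32, adjusted p = 0.000362) and also kept its call in the 22 settings (-2.50 to -1.64). Purkinje replicate 3 stood above the other 3 in both Scd1 and Acaca, yet under every cumulus clone.

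Fasn, the fatty acid synthase, read 0.86, 1.65, 1.58 and 0.75 against 3.36, 2.84 and 2.74 (-1.77 ± 0.50, adjusted p = 0.0146). Acly, which supplies cytosolic acetyl-CoA, read 0.29, 0.44, 1.24 and 0.74 against 1.95, 2.90 and 2.19 (-1.67 ± 0.24, adjusted p = 5.52e-05). Scd2 differed by -1.02 (adjusted p = 0.0344). In each of the 3 genes the groups were apart, but Scd2 lost its call without any 1 of 6 embryos (all but Purkinje replicate 3) with differences from -1.06 to -0.69, and also in the fits of the 7 arrays or the 14 XX arrays alone. Fasn lost its call without cumulus replicate 1 (-1.58), without the 3 low-signal Purkinje arrays (-2.12), with the median over its probes (-1.36) and in the fit of the 14 XX arrays. Set beside the CA1 clones of the same array set, the Purkinje clones were lower in Acaca (-1.40, adjusted p = 0.00213), Fasn (-2.09, adjusted p = 0.00474), Scd1 (-1.21, adjusted p = 0.00892), Acly (-0.81, adjusted p = 0.0157), Nsdhl (-1.43, adjusted p = 0.00914) and Mvd (-1.63, adjusted p = 0.0145). For Cyp51 (-1.26, adjusted p = 0.0906) and Lss (-1.11, adjusted p = 0.0575) that difference missed the threshold. The 4 XY Purkinje clones, which entered neither comparison, ranged from -2.02 to -0.99 in Acaca with a median of -1.75, against -1.72 to -0.73 in the XY CA1 clones and 0.08 to 0.45 in the 7 XY IVF embryos.

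**Figure D2:**
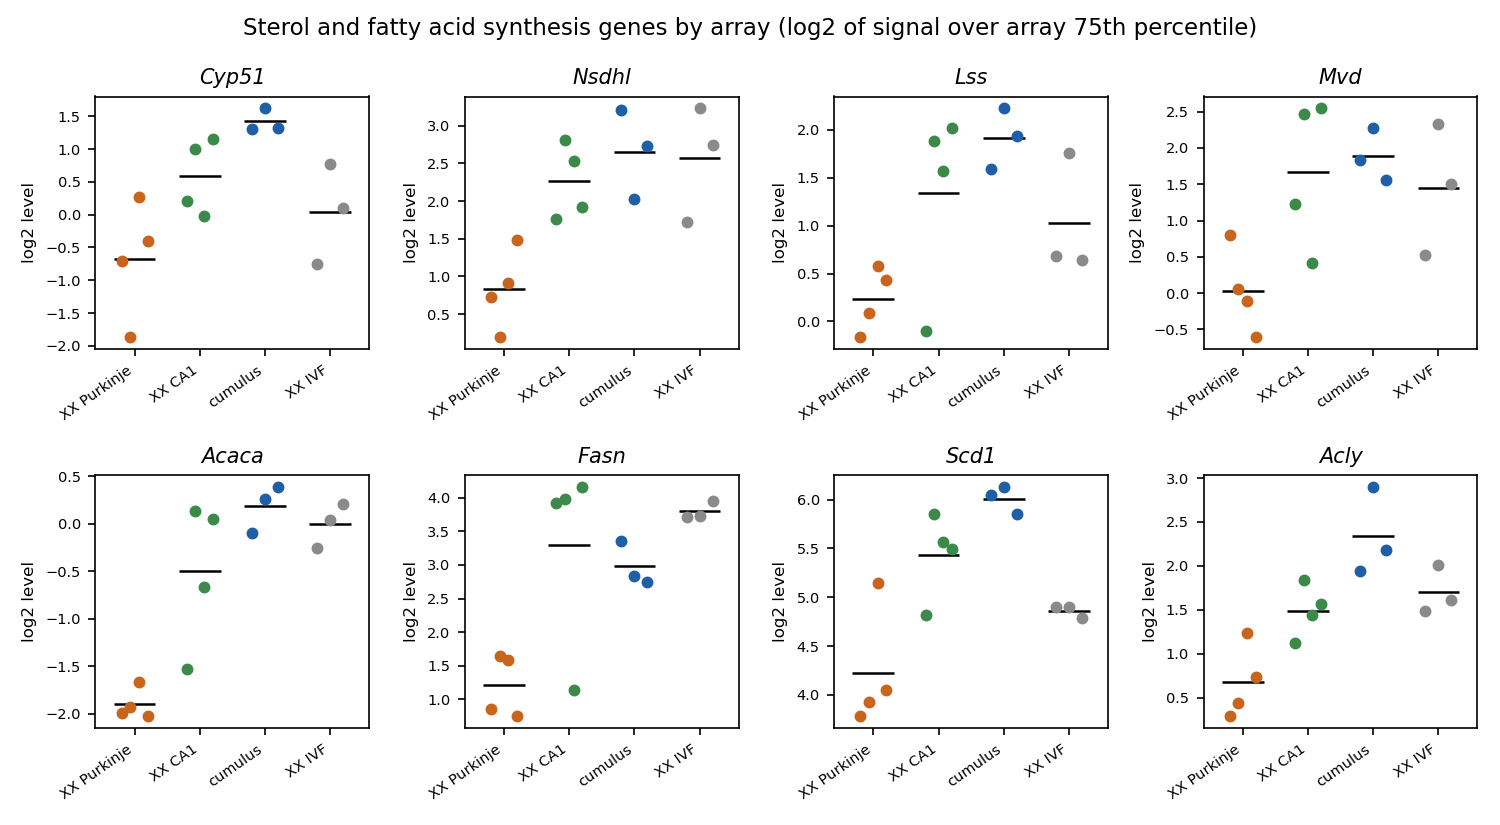
Level (log2 of signal over the array's 75th percentile) of 8 sterol and fatty acid synthesis genes in the XX Purkinje, XX CA1 and cumulus clones and the XX IVF embryos; each point is 1 embryo and each bar a group mean. In each of the 8 panels the 4 Purkinje clones lie under the 3 cumulus clones. The CA1 clones, of the same array set as the Purkinje clones, have a mean above theirs in every panel, and for Fasn 3 of the 4 lie above the cumulus clones.

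The cholesterol list stayed under the median of all genes in each scaling tried. Its lower genes were 15 with median scaling, 11 with quantile normalization, 10 with normexp background correction and 10 in the authors' deposited value table. Over all 15792 genes those settings called 2391, 893, 481 and 645 lower, against 687 in the main fit, so the counts also follow the general shift. The list median lay -1.23, -1.23, -1.52 and -1.32 from that of all genes there, against -0.98 in the main fit. Leaving out 1 embryo gave 5 to 11 lower genes, with 5 without cumulus replicate 2, and the fit with the single Purkinje array of higher signal gave 4. In that fit the list median was -1.04, against -0.84 with all 4 arrays.

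The promoters of the lower genes are shown because these genes moved together. RefSeq promoter entries (GRCm38.p6) existed for 9 of the 14 sterol and fatty acid genes called lower. Within the 250 bases before the start site, 7 of the 9 held the CCAAT box, the letters CCAAT on either strand, as did 40.2% of the 10572 tested genes with an entry. Over the whole cholesterol list, called or not, 16 of 17 promoters held it, so it was not particular to the genes that fell. The CCAAT box is bound by NF-Y, a general activator known to work beside the sterol-responsive factors. The letters CACCCCAC, a core of the sterol regulatory element, were found in none of the 9, in 2 of the 17 and in 3.27% of the tested genes; this says only that these exact letters are absent from these windows. The GC box CCGCCC, which neither contains nor is contained in the other motifs, was in 7 of the 9, in 16 of the 17 and in 61.2% of the tested genes. The following 4 promoters show the CCAAT boxes (capitals, with ATTGG for the reverse strand) in the last 160 bases before the start, read 5′ to 3′ on the strand of the gene.
Mvk, chr5:114444109-114444268, plus strand: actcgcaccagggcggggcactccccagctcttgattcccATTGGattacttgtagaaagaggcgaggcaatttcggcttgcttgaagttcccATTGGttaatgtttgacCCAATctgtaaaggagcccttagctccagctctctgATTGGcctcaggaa
Cyp51, chr5:4104698-4104857, minus strand: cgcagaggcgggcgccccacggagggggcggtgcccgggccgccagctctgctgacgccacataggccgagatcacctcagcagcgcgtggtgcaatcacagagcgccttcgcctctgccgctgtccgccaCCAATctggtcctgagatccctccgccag
Lss, chr10:76531445-76531604, plus strand: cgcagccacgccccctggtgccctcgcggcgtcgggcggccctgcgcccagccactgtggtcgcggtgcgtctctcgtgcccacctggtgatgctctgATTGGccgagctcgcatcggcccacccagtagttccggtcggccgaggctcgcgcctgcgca
Fasn, chr11:120824548-120824707, minus strand: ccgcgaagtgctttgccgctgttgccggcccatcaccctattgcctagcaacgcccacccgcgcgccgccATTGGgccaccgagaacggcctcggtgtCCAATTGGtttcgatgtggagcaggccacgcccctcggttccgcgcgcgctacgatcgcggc
Mvk held 5 CCAAT boxes in its 250 bases, Fasn 3, of which 2 overlap, and Cyp51 and Lss 1 each. The counts are a description of these windows and no measure of binding.

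Some genes of lipid storage and breakdown were higher. Cidea, a protein of lipid droplets, read 2.72, 2.62, 4.56 and 2.80 in the Purkinje clones and -0.67, 0.77 and -1.06 in the cumulus clones. It was 11.3-fold higher (3.49 ± 0.75, adjusted p = 0.00191), with the highest level in Purkinje replicate 3. A further 6 genes of the list rose: Cpt2 (1.75), the inner carnitine palmitoyltransferase, Mgll (1.33), the monoglyceride lipase, Pnpla2 (1.24), the first lipase of stored triglyceride, Hadhb (1.08), a subunit of the beta-oxidation trifunctional protein, Plin2 (0.91), the coat protein of droplets, and Fabp3 (0.63), a fatty acid carrier. Of the 25 genes of fatty acid handling measured, 7 rose and 5 fell (28% and 20%, against 14.4% and 4.35% of all genes). The 5 that fell are the synthesis enzymes above. Fabp3 turned to -0.08 under median scaling and -0.10 under quantile normalization, and lost its call without Purkinje replicate 2 (0.51) or cumulus replicate 3 (0.55). Hadhb, Plin2, Mgll and Pnpla2 kept their direction but not their call under median scaling (0.38, 0.21, 0.63 and 0.54). Against the CA1 clones Fabp3 was higher (1.27, adjusted p = 6.58e-05), whereas Cidea differed by 0.92 (adjusted p = 0.455), Plin2 by -0.03 and Pnpla2 by -0.12. The list median was 0.23 above that of all genes and turned to -0.21 under normexp and -0.01 under quantile normalization, so its overall direction is not stable, while Cidea stayed higher in both (2.88 and 3.35).

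Dnmt1, Uhrf1 and Dnmt3b, 3 genes of DNA methylation, were lower in the Purkinje clones. Dnmt1 copies methylation onto new DNA strands, Uhrf1 guides it there, and Dnmt3b adds methylation at unmethylated sites. Of 17 methylation genes measured, 3 fell and 1 (Mbd1, a reader of methylated CpG, 1.25) rose, and the median difference was -0.31. These are 17.6% and 5.88%, against 4.35% lower and 14.4% higher of all genes. Dnmt1 read 0.31, -0.59, -0.38 and -0.92 in the Purkinje clones and 1.00, 1.40 and 1.13 in the cumulus clones, a 2.97-fold lower level (-1.57 ± 0.38, adjusted p = 0.00475). Uhrf1 read 3.09, 3.48, 3.97 and 3.27 against 4.27, 4.46 and 4.75 (-1.04 ± 0.28, adjusted p = 0.0107), and its second probe fell by more (-1.54). Dnmt3b read 3.82, 3.69, 3.23 and 3.33 against 4.79, 4.14 and 4.69 (-1.02 ± 0.24, adjusted p = 0.00441).

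The groups were apart for all 3 genes. Within the present array set the Purkinje clones were lower than the CA1 clones in Dnmt1 (-2.32, adjusted p = 0.000142), Uhrf1 (-1.69, adjusted p = 0.000169) and Dnmt3b (-1.28, adjusted p = 0.000644), and 5 of the 17 genes were called lower there, against 4.83% of all genes. The XY Purkinje clones had a median Dnmt1 level of 0.07 (-0.32 to 0.93) and the XY CA1 clones of 0.50 (0.16 to 0.94), against 1.29 in the Sertoli clones and 1.71 in the XY IVF embryos. Tet3, which oxidises methylcytosine, differed by -1.60 (adjusted p = 0.0529), just short of the threshold, which it passed without Purkinje replicates 2 or 3 or cumulus replicate 2 (-1.84, -1.86 and -2.01), and Dnmt3a, Tet1 and Tet2 differed by -0.30, 0.08 and 0.04 by their brightest probes. Dimmer Dnmt3a probes differed by -2.31 (adjusted p = 0.0569) and -0.62 (adjusted p = 0.216), neither called, so its size of difference depends on the probe. A dimmer Tet2 probe differed by 0.57 and a Tet3 probe near the floor by 0.04. With the 3 low-signal Purkinje arrays left out the differences were -0.86 for Dnmt1, -0.72 for Dnmt3b and -1.40 for Uhrf1, and none passed. Uhrf1 also lost its call without cumulus replicate 3 (-0.91), and Mbd1 without cumulus replicate 2 (1.13), without the low-signal arrays (0.75) and under median scaling (0.55), quantile normalization (0.92) and normexp (0.88). The list held 7 falls under median scaling, 5 under quantile normalization and 3 under normexp, and no rise in any of these settings. Over all 15792 genes tested the falls there were 2391, 893 and 481, against 687 in the main fit. Without the low-signal arrays the list median lay -0.20 from that of all genes, against -0.44 with them.

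Imprinted genes, expressed from 1 parental allele and sensitive to methylation, gave mixed counts. Of 20 maternally expressed genes measured, 3 fell (15% against 4.35% of all genes) and 1 rose (5% against 14.4%), and of 19 paternally expressed genes 1 rose (Mcts2, 1.33) and none fell. H19, a non-coding RNA of distal chromosome 7, read -3.12, -3.43, -1.01 and -3.43 in the Purkinje clones and 0.80, 1.05 and 2.33 in the cumulus clones. Purkinje replicates 2 and 4 were on the floor, and the fitted difference was -4.14 ± 0.82 (adjusted p = 0.000953). The call held in all 22 settings, from -4.72 to -2.63. The cumulus clones had the highest H19 median of the 8 groups, although the XX IVF range overlapped theirs: the XX CA1 clones ranged from -2.95 to 0.31, the XX IVF embryos from -1.98 to 1.16, and the 4 XY Purkinje clones from -3.43 to -2.91. Against the CA1 clones the Purkinje clones differed by -1.16 (adjusted p = 0.371).

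Osbpl5, a lipid transfer protein next to the same cluster, read 3.79, 1.04, 3.22 and 3.15 against 5.73, 5.94 and 5.42 (-2.90 ± 0.55, adjusted p = 0.000613), with Purkinje replicate 2 far below the other 3, and also differed from the CA1 clones (-1.57, adjusted p = 0.0437). Meg3, a non-coding RNA of chromosome 12, lay near or on the floor in the Purkinje clones (-3.14, -3.43, -3.43, -3.43) and at -1.89, -1.36 and -0.18 in the cumulus clones (-2.21, adjusted p = 0.024). That call was lost without Purkinje replicate 2 (-2.19), cumulus replicate 2 (-2.32) or cumulus replicate 3 (-1.73). Igf2r rose by 0.66 (adjusted p = 0.0349), a direction that median scaling turned (-0.05); the call was lost without Purkinje replicate 2 (0.53), Purkinje replicate 4 (0.63) or cumulus replicate 1 (0.43).

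Xist, the RNA that coats the inactive X chromosome, did not differ past the threshold. It read 2.88, 4.65, 4.15 and 4.06 in the Purkinje clones and 5.40, 5.73 and 4.11 in the cumulus clones (-1.14, 95% interval -2.26 to -0.03, adjusted p = 0.148), and both groups overlapped. Of 3 dimmer Xist probes 1 was called lower (-1.47, adjusted p = 0.00875), and the others differed by -0.60 and -0.11. Of 549 X-linked genes 65 rose (11.8%) and 20 fell (3.64%), close to the 14.5% and 4.37% of autosomal genes, and under median scaling 8 were higher and 58 lower. The X-linked list had a median of 0.01 against 0.14 for autosomal genes, and a median 0.17 above all genes under normexp. Rhox5, an X-linked homeobox gene, was high in both groups, at 6.23, 7.88, 7.09 and 8.12 against 6.92, 5.53 and 7.02 (0.84, adjusted p = 0.451). None of 9 Magea and Xlr genes was called. The Y-linked Ddx3y and Eif2s3y lay on the floor in all 7 embryos, as the label female states.

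Many genes of protein and energy supply were higher in the Purkinje clones. Of 81 cytosolic ribosomal protein genes 57 rose and none fell by the brightest probe, with a median of 0.91, 0.77 above that of all genes. With the median over the probes of a gene 45 rose and 1 fell. Dimmer probes went both ways, as for Rpl13 (1.73 and -1.29, both called). Of 80 genes of the respiratory chain and ATP synthase 47 rose, of 75 mitochondrial ribosomal protein genes 44, and of 40 proteasome subunits 19, none of the 3 lists with a fall under this scaling by the brightest probe, at medians of 0.79, 0.82 and 0.74. In these 3 lists the median over probes gave 38, 37 and 14 rises and no fall. The mean level of the cytosolic ribosomal list was 6.77 to 7.14 on the Purkinje arrays and 5.89 to 6.09 on the cumulus arrays. For comparison, 1191 of the 3948 genes in the top 25% of levels were called higher.

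Rpl7a, a protein of the large ribosomal subunit, read 8.55, 9.32, 8.99 and 9.02 against 7.34, 7.08 and 6.98 and was 3.58-fold higher (1.84 ± 0.23, adjusted p = 1.85e-05). Uqcr10, a small subunit of complex III, read 6.86, 7.04, 6.60 and 6.54 against 5.40, 4.74 and 5.31 (1.61 ± 0.27, adjusted p = 0.000225). Mrpl20, of the mitochondrial ribosome, read 5.96, 5.80, 5.45 and 5.51 against 3.95, 4.0 and 4.10 (1.66 ± 0.24, adjusted p = 8.82e-05). All 3 genes had groups that stood apart by more than the range of either. Psmb7, a catalytic proteasome subunit, read 1.29, 2.54, 2.56 and 2.24 against 0.28, 0.00 and 0.65 (1.85 ± 0.31, adjusted p = 0.000229), with replicate 1 the lowest of the Purkinje clones.

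Beside the CA1 clones these lists parted. The ribosomal list stayed higher in the Purkinje clones (median 0.52, 33 of 81 called higher against 6.19% of all genes), and so did the proteasome (0.43, 14 of 40). The mitochondrial lists had medians near that of all genes there (0.11 with 12 of 80 for the respiratory chain, 0.09 with 4 of 75 for the mitochondrial ribosome). Between CA1 and cumulus clones, which crosses the array sets, the mitochondrial lists differed by 0.65 and 0.64.

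The number of calls in these lists changed with the scaling more than for the sterol genes. The 9 sterol falls were 15 under median scaling, 11 under quantile normalization and 10 under normexp. Over all genes the 687 falls became 2391, 893 and 481 there, and the 2267 rises became 319, 1308 and 2491. Against 57 higher ribosomal calls, there were 27 under quantile normalization, 7 under median scaling and 4 under normexp, and 11 without the low-signal Purkinje arrays. The ribosomal median stayed above that of all genes in each (0.33, 0.52, 0.11 and 0.78). Relative to all genes the proteasome and respiratory chain medians turned to -0.08 and -0.03 under normexp. Under median scaling the respiratory chain held 3 higher and 6 lower calls, the mitochondrial ribosome 5 and 4, and the proteasome 2 and 1. Under quantile normalization these were 17 and 3, 23 and 0, and 7 and 0, and under normexp 3 and 1, 1 and 0, and 2 and 0. Without the low-signal arrays 11, 12 and 1 were higher and none lower.

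**Figure D3:**
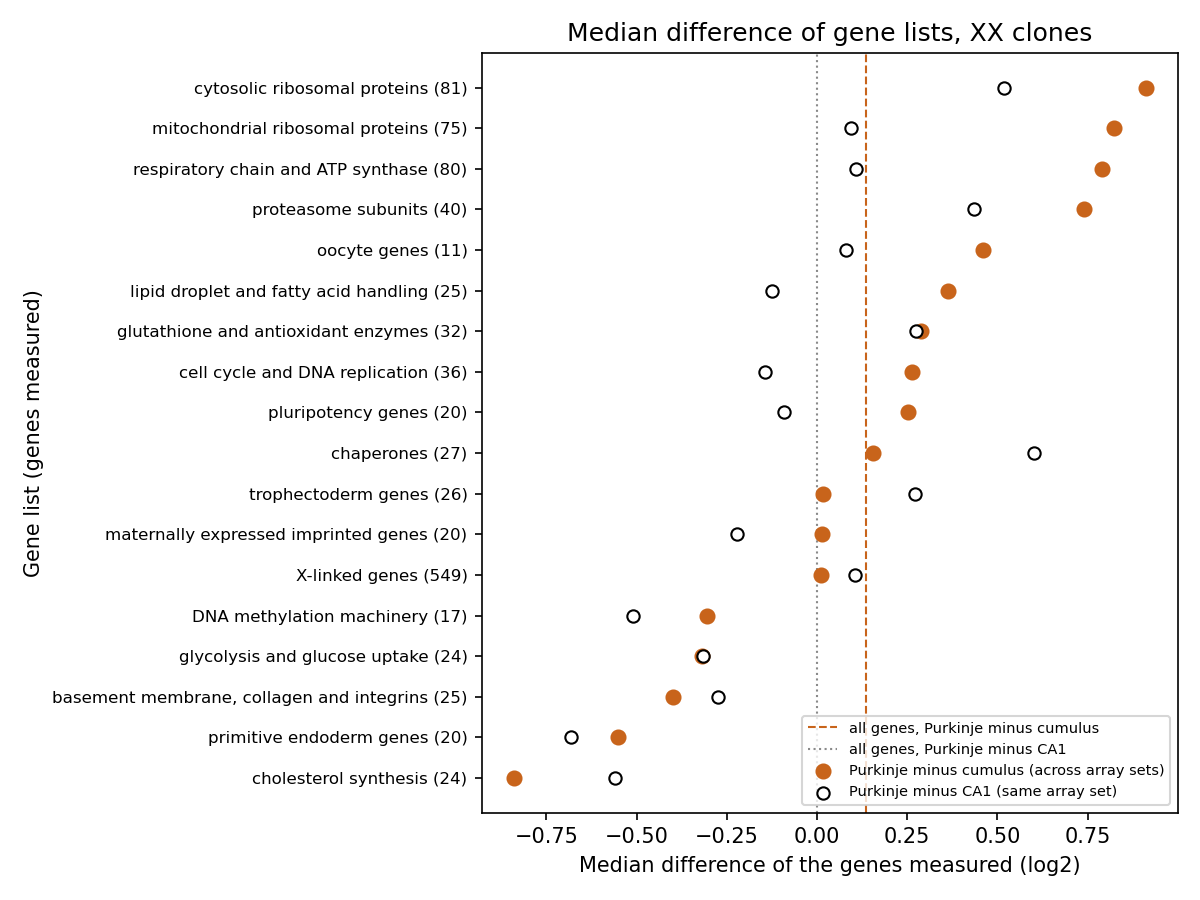
Median difference (log2) of the measured genes of 18 lists, with the number of genes in brackets. Filled orange points are Purkinje minus cumulus clones, which crosses array sets, and open points Purkinje minus CA1 clones, within 1 set; the dashed and dotted lines are the medians of all genes at 0.14 and 0. The translation, mitochondrial and proteasome lists lie farthest right and cholesterol synthesis farthest left for the orange points, and the open points of the mitochondrial lists sit near the dotted line.

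Chaperones, which fold proteins, and antioxidant enzymes gave mixed counts. Of 27 chaperone genes 5 rose and 1 fell (18.5% and 3.70%, against 14.4% and 4.35% of all genes). That balance turned to 1 higher and 7 lower under median scaling, 1 and 5 under quantile normalization and 1 and 2 under normexp, and the median, 0.02 above that of all genes, turned to -0.24, -0.33 and -0.64, and to -0.30 without the low-signal arrays. Within the present array set 11 were higher than in CA1 clones, against 6.19% of all genes. Hsp90aa1, the inducible HSP90, read 8.76, 10.02, 9.77 and 9.73 against 8.49, 8.40 and 8.47 (1.11, adjusted p = 0.0276), and Purkinje replicate 1 stayed near the cumulus clones. This call was made in 11 of the 22 settings and was lost without any 1 embryo other than Purkinje replicate 1 (0.96 to 1.13). Over the settings the Hsp90aa1 difference ranged from 0.26 to 1.38. Its levels were divided by a 75th percentile signal of 838 on Purkinje array 1 and 353.8 to 469.6 on the other Purkinje arrays. On the cumulus arrays that divisor was 999.7 to 1059.4. The part of the divisor in the Hsp90aa1 difference and in the level of replicate 1 was not tested. Hsp90ab1, the constitutive form, moved the opposite way at 7.08, 7.33, 6.97 and 7.05 against 7.75, 7.75 and 7.83 (-0.67 ± 0.13, adjusted p = 0.00088), called in all 22 settings. Of 32 glutathione and antioxidant genes 8 rose and Keap1, the brake on the antioxidant factor Nrf2, fell (-1.61, overlapping groups; not called without Purkinje replicate 2 or 4 or cumulus replicate 2, at -1.39, -1.42 and -1.16). Sod1, the cytosolic superoxide dismutase, read 6.84, 7.87, 8.17 and 7.71 against 6.23, 5.68 and 6.46 (1.52 ± 0.28, adjusted p = 0.000461). The balance of 8 rises and 1 fall turned to 0 higher and 5 lower under median scaling and 1 and 2 under normexp, was 3 and 2 under quantile normalization, and had no call either way without the low-signal arrays.

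Markers of the blastocyst were present in both groups. Pou5f1, the core pluripotency factor, read 3.60, 4.14, 4.38 and 3.76 against 4.0, 4.02 and 4.40 (-0.17, 95% interval -0.72 to 0.38, adjusted p = 0.742). Cdx2 and Gata6, regulators of trophectoderm and primitive endoderm, differed by 0.46 (adjusted p = 0.385) and 0.49 (adjusted p = 0.115). Nanog read 1.68, 3.20, 3.38 and 2.67 against 3.61, 3.51 and 4.12; the groups did not overlap, but the test did not call the difference of -1.01 (adjusted p = 0.201). None of these 4 genes was called. The keratins Krt8 and Krt18, also set beforehand as defining genes of the blastocyst, were called higher and are given below with the trophectoderm genes.

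Of 20 pluripotency genes 3 fell and 2 rose (15% and 10%, against 4.35% and 14.4% of all genes), and the rises were not called under median scaling, quantile normalization or normexp, or without the low-signal arrays. Lin28a, which blocks let-7 maturation, read -1.40, -1.06, -0.97 and -0.28 against 0.87, 0.59 and 0.29 (-1.51 ± 0.31, adjusted p = 0.00115) and was called in all 22 settings. Tdgf1, a co-receptor of Nodal, fell by 1.87 on the log2 scale (adjusted p = 0.0053). Sall4 fell by 1.57, but its second, dimmer probe rose by 1.75 (adjusted p = 0.00397), so its direction is uncertain. Zfp42, a marker of the naive state, read 6.20, 7.10, 7.09 and 7.05 against 6.07, 5.68 and 5.85 (0.99 ± 0.22, adjusted p = 0.00284) and was also higher than in CA1 clones (1.52, adjusted p = 6.26e-05). It was not called under normexp, median scaling or quantile normalization (0.26, 0.29 and 0.42), nor without the low-signal arrays (0.33).

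Of 26 trophectoderm genes 3 rose, a share of 11.5% that lies under the 14.4% of all genes. Krt18, a keratin of the outer epithelium, read 8.51, 8.75, 8.57 and 8.82 against 8.06, 7.82 and 7.91 (0.74, adjusted p = 0.0106), and its partner Krt8 rose by 0.52 (adjusted p = 0.0417), a direction that normexp, median scaling and quantile normalization turned (-0.21, -0.18 and -0.18). Krt18 lost its call in those 3 settings (0.18, 0.03 and 0.04) and without cumulus replicate 2 (0.68), and Krt8 without any 1 embryo other than Purkinje replicate 1 (0.47 to 0.57). Hand1, needed for giant cells, was scattered at 0.97, 2.83, -1.62 and -0.13 against -3.43, -3.43 and 0.44 (2.65, adjusted p = 0.0213), with overlapping groups; the call was lost without Purkinje replicate 2 (1.88) or cumulus replicates 1 or 2 (2.00 each). Of 20 primitive endoderm genes Lama1, a chain of basement membrane laminin, fell (-3.26, adjusted p = 0.0207, overlapping groups). The Lama1 call was lost without Purkinje replicates 2 or 3 (-2.97 and -2.83) or cumulus replicates 1 or 3 (-2.41 and -3.02). The list's mean level was 0.63 to 1.29 in the Purkinje clones and 2.64, 0.66 and 1.59 in cumulus replicates 1 to 3, so the cumulus embryos differed more among themselves than the groups did.

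Genes stored in the oocyte were higher where they were called. Dppa3, which protects the maternal genome's methylation state, read 7.41, 8.47, 8.09 and 8.11 against 7.20, 6.28 and 6.48 (1.37 ± 0.28, adjusted p = 0.0014). Khdc3, of the subcortical maternal complex, read 8.41, 9.53, 8.99 and 8.93 against 8.11, 7.89 and 7.95 (0.98 ± 0.20, adjusted p = 0.00129) and was higher than in CA1 clones (1.23, adjusted p = 0.000148). Ooep of the same complex rose by 1.17 (adjusted p = 0.0167), a call lost without Purkinje replicate 1 (0.91) or cumulus replicate 2 (0.90). In both Dppa3 and Khdc3 every Purkinje embryo exceeded every cumulus embryo, but Khdc3 was not called under quantile normalization (0.21), median scaling (0.28) or normexp (0.56), and Dppa3 not under median scaling (0.67) or normexp (0.87). These 3 were the calls among 11 oocyte genes measured, a share of 27.3% against 14.4% of all genes called higher. For comparison, 1191 of the 3948 genes in the highest level class were called higher. Whether the oocyte share exceeds that of other genes at like levels was not tested.

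Genes that define the donor cells were mostly not among the genes measured. None of 7 Purkinje cell markers measured, of 22 listed, was called. Pcp2, a Purkinje cell protein, read -0.61, -0.02, -0.51 and -0.36 against -1.07, -1.19 and -0.80; the groups were narrowly apart, and the 0.64 between them was not called (adjusted p = 0.177), except in the fit of the 14 XX arrays. Car8 was on the floor in 3 of 4 Purkinje and 2 of 3 cumulus embryos, and Slc1a6, the Purkinje glutamate transporter, in all 7. None of 8 cumulus markers was called, with 4 differences downwards and 3 upwards. Amhr2 read 0.41, 1.65, -1.11 and 0.51 in the Purkinje clones and -0.67, -1.39 and -0.63 in the cumulus clones (1.26, adjusted p = 0.102). It was called without Purkinje replicate 3 (1.76). Npr2, another gene of the list, was called lower in 5 of 22 settings, with differences from -2.305 to 0.298. Of its other probes, a dim probe was called lower (-1.91, adjusted p = 0.0147) and the other, near the floor, differed by 0.09. The mean level of the cumulus list ranged from -1.69 to -1.18 in the Purkinje clones and from -1.40 to -1.07 in the cumulus clones. Of 15 pan-neuronal genes Eno2, the neuronal enolase, fell (-2.01, adjusted p = 0.0242, overlapping groups), at -1.12, 0.02, -1.37 and -2.97 against 1.55, 0.02 and 0.39. The call was lost without Purkinje replicate 4 (-1.48) or cumulus replicate 1 (-1.56).

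The genes with the largest rises included F9, X-linked coagulation factor IX, which read -0.22, 0.92, 0.71 and 1.18 in the Purkinje clones and -2.96, -3.20 and -2.95 in the cumulus clones. The gap exceeded the range of either group, and the level was 12.8-fold higher (3.68 ± 0.39, adjusted p = 9.02e-07). F9 kept its call in all 22 settings, between 2.81 and 3.97, and was higher than in CA1 clones within the present set (2.56, adjusted p = 8.48e-05). Across the series the XY Purkinje clones ranged from -0.94 to 1.08, and no embryo of another group exceeded -0.61: -1.60 to -0.61 in Sertoli clones, -1.83 to -0.87 in XY CA1 clones, -2.42 to -1.45 in XX CA1 clones and -2.65 to -1.59 in XY IVF embryos. Both Purkinje groups had the highest medians for this gene, although the XY Purkinje range overlapped those of the Sertoli and XY CA1 clones.

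Cyth4, an exchange factor for ARF proteins, read 1.19, 2.59, 2.57 and 2.87 against -0.85, -0.69 and -0.58 (3.01 ± 0.59, adjusted p = 0.000806) and also exceeded the CA1 clones (2.07, adjusted p = 0.0141). Jund, a subunit of AP-1, read 5.19, 5.54, 5.17 and 4.97 against 3.35, 3.37 and 3.81 (1.71 ± 0.27, adjusted p = 0.000171), was called in all 22 settings and exceeded the CA1 clones (1.15, adjusted p = 0.00427). Others of the largest rises were high in the CA1 clones too: Nin, a centrosome protein (3.46, against 0.17 relative to CA1), Mtus2, a microtubule-associated protein (3.21, against 0.72), and Rpl39l, a ribosomal protein paralogue (2.90, against 0.93). P2rx7, an ATP-gated channel, had the largest fitted rise of all genes tested (3.87, adjusted p = 0.0319) but read 0.88, 3.50, 1.14 and 1.36 against -3.43, -1.25 and -1.79, and lost its call without Purkinje replicate 2 (3.28) or any 1 cumulus embryo (3.24 to 4.33). Slc6a12, a betaine transporter, lay on the floor in all 3 cumulus clones and was at least 8.5-fold higher in the Purkinje clones (adjusted p = 0.00494).

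**Figure D4:**
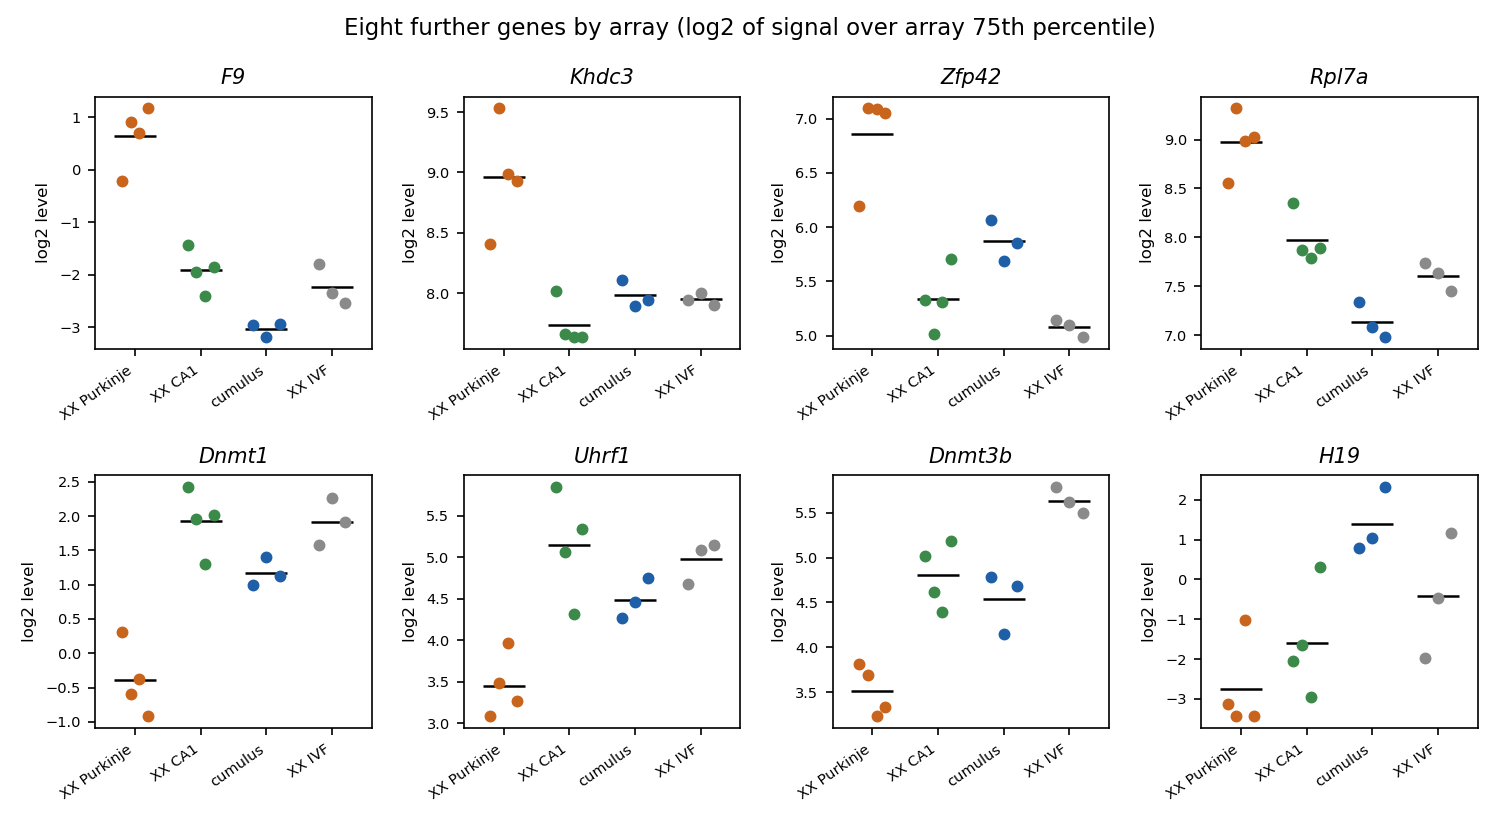
Level (log2 of signal over the array's 75th percentile) of F9, Khdc3, Zfp42, Rpl7a, Dnmt1, Uhrf1, Dnmt3b and H19 in the 4 XX groups; each point is 1 embryo and each bar a group mean. By group mean the Purkinje clones are the highest of the 4 groups for the first 4 genes and the lowest for the last 4, and for H19 the cumulus clones lie between 0.80 and 2.33, with the Purkinje clones at or under -1.01.

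The largest falls were of another kind. Pdk2, a pyruvate dehydrogenase kinase, read -3.43, -3.08, -3.37 and -3.36 in the Purkinje clones and 3.1, 2.67 and 2.04 in the cumulus clones (-5.92 ± 1.18, adjusted p = 0.000959). Tmem35a, a chaperone of acetylcholine receptors, St6gal1, a sialyltransferase, Cpa6, a carboxypeptidase, and Mapk8ip1, a scaffold of JNK signalling, were on the floor in all 4 Purkinje clones and at least 47.5-fold, 38.4-fold, 35.9-fold and 24.4-fold lower. Dtx4, a ubiquitin ligase of the Notch pathway, was at least 43.6-fold lower by its brightest probe and differed by -0.26 by its other, dim probe. Between the Purkinje and CA1 clones none of the 14 genes was called, and apart from H19 (-1.16) the differences lay between -0.61 (Neurl1a) and 0.51 (Slc12a9).

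The level of these genes varied from embryo to embryo inside other groups. Their mean over 14 genes was 2.32, 1.74 and 0.82 in cumulus replicates 1 to 3 and -3.35, -3.17, -3.06 and -3.16 in Purkinje replicates 1 to 4. Within the XX IVF group it was -1.34, -2.95 and 1.47, and in the XY IVF group 1.46 in replicate 4 and -1.06 in replicate 5, while the other 5 lay between -3.42 and -3.07. In the present array set, XY CA1 replicates 1 and 2 stood at 0.72 and 0.61 against -2.46 and -1.13 for replicates 3 and 4, and XY Purkinje replicate 2 at 0.17 against -2.97 to -2.19 for the others. The genes were chosen by their fall here, so the high levels of the cumulus embryos and the low levels of the XX Purkinje embryos are set by that choice. Levels above 0 were also seen in single embryos of other groups in both array sets, and whether it goes with the donor cell was not tested.

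**Figure D5:**
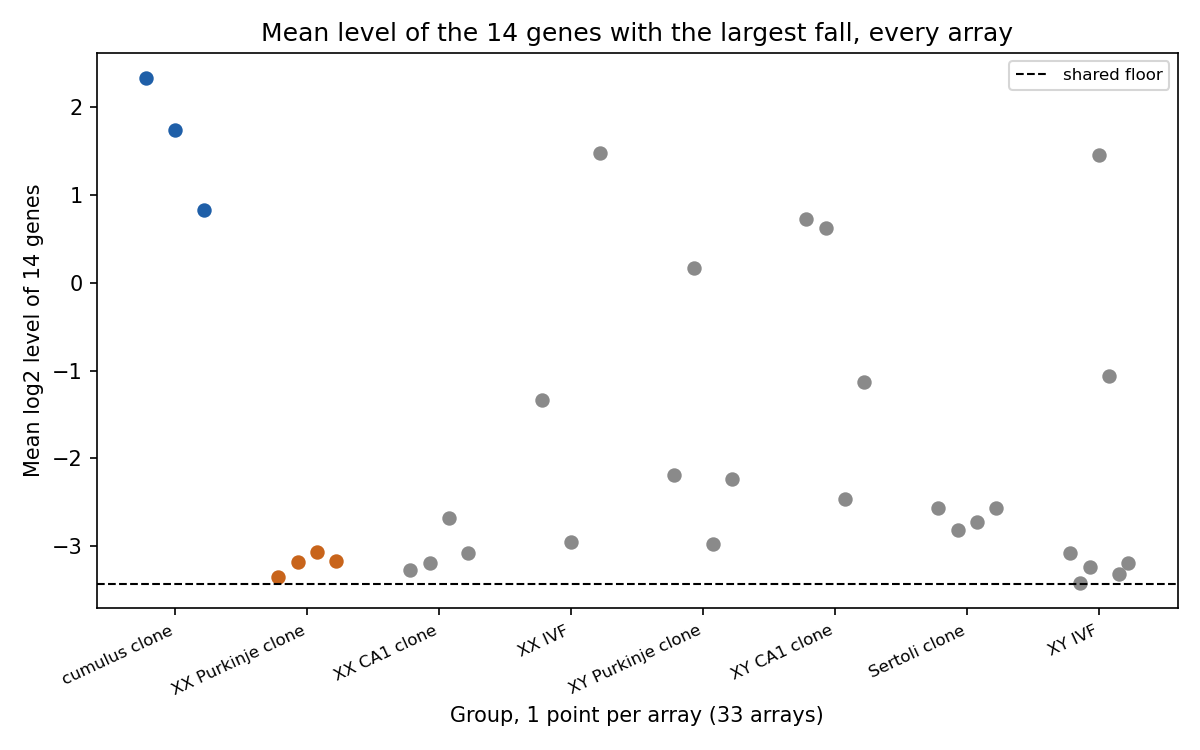
Mean level (log2 of signal over the array's 75th percentile) of the 14 genes with the largest fall, 1 point per embryo for all 33 arrays by group; the dashed line is the shared floor at -3.43. The 3 cumulus clones (blue) lie at 0.82 or above and the 4 XX Purkinje clones (orange) near the floor, and single embryos of the IVF, XY CA1 and XY Purkinje groups also lie above 0.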

How the data were processed

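RNA of 33 single blastocysts had been measured on single-colour Agilent arrays. Per the labels' protocols each embryo's RNA was amplified in a pair of linear rounds and labelled with Cy3. The deposited scanner files hold a processed intensity per spot, background-subtracted by Agilent Feature Extraction, whose version is 10.5.1 per the submitters' processing notes and differs between the array sets per the file headers. The authors' deposited value table holds log2 values for 41174 probes, with column medians from -0.591 to 0.767. Set against the scanner files, the table matched log2 processed signals over the array's 75th percentile, centred by probe, with a median absolute difference of 0.00514; which arrays set the centre is not stated in the sources used here.

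Processed intensities were divided by each array's 75th percentile, given a shared floor of 0.0929 of that percentile and taken to log2; 20.2% of the values of the 7 arrays lay on the floor. A probe stayed in when it was well above background on more than 50% of the arrays of at least 1 group and over the floor on at least 3 arrays, with at least 2 values per group. The brightest probe stood for a gene. Differences were fitted with limma 3.58.1 (R 4.3.3) as 8 group means over all 33 arrays (25 residual degrees of freedom), with Benjamini-Hochberg adjustment over 15792 genes and calls at an adjusted p under 0.05. SE is the moderated standard error and intervals are 95% intervals of the fit. A fold written "at least" sets the brighter group's mean against the floor. The number of arrays limits the precision: in simulated data for this comparison 4%, 28%, 68% and 84% of 50 genes each were recovered at log2 changes of 0.5, 1, 1.5 and 2, with 9 unchanged genes called among 15792. The changed genes had a cumulus mean above the 75th percentile, and all other genes were set equal between both groups. Noise was independent between arrays, and no difference between array sets was simulated. The shares therefore need not hold in the real comparison, where many more genes differ. Probe names were updated to RefSeq through accession (23080 probes), symbol (6584) or synonym (3073); the name given in the file stayed for 8437.

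The text names the 14 largest rises and falls, leaving out predicted loci, up to 4 called members per list and 15 set genes; 25 further list members were named after their values were seen. The members and lists were chosen with earlier results of these data known. Alternatives were other scalings, background corrections, floors, filters, fits, the authors' table and leaving out each embryo; 3 were added after seeing the data. Replicate numbers come from the labels, and same-numbered embryos did not deviate together (r = -0.0902, -0.0824 and 0.0176), so the samples were not paired. Results for some single genes are not reported here.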

Additional observations from a re-analysis of the deposited data

Results flagged for a closer look

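Among the 4 XX Purkinje clones, 13 of 176 values tested (7.386%) had 1 embryo farther from the others than Dixon's 95% limit for groups of 4; chance passes this limit in about 1 in 20 groups. Genes with 2 or more of the 4 values on the floor were not tested.

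Purkinje replicate 3 was the highest for Cidea, at 4.56 against 2.62 to 2.80 in the others, and for the mean level of maternally expressed imprinted genes (0.32). It was the lowest for Tm6sf1 (0.71 against 1.77 to 1.92), for Tdpoz1 (-1.19 against -0.33 to -0.19) and for Mrpl55 (4.13 against 4.27 to 4.30).

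Purkinje replicate 1 was the lowest for Zfp42 (6.20 against 7.05 to 7.10), for the mean level of chaperones (4.76 against 5.28 to 5.34) and for Sema6b (-3.37 against -2.94 to -2.86), and the highest for the mean level of Y-linked genes, which lay at the floor (-3.40). It was also the Purkinje array with the highest 75th percentile signal, 838 against 353.8 to 469.6; the part of signal in these values was not tested.

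Purkinje replicate 2 was the highest for Nin (2.42 against 1.19 to 1.32), for the mean level of pan-neuronal markers (-1.74 against -2.39 to -2.35) and for the mean level of autosomal genes (0.44). Purkinje replicate 4 was the highest for Trim46 (-2.52 against -3.38 to -3.24).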

How the results depend on the processing

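Beside the 2267 higher and 687 lower calls, median scaling gave 319 and 2391, quantile normalization 1308 and 893, array weights 3137 and 1126, and leaving out 1 embryo 1455 to 2372 and 413 to 710. Normexp on median signals gave 2491 and 481, and 1050 of the 2954 calls were kept there. After seeing the data 3 alternatives were added: that normexp setting, genes well above background on all 7 arrays (2331 and 610), and the fit without the 3 low-signal Purkinje arrays (397 and 77). Normexp on mean signals was not run, because the files of the present set hold only median signals. The other settings stayed within 1.5 times of the main counts. With the replicate number as a block, over 7 arrays with 2 residual degrees of freedom, limma called 0 genes higher and 0 lower, with 3464 at an unadjusted p under 0.05; the embryos share only a number.

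Directions turned for Krt8 (-0.21 under normexp, -0.18 under median scaling, -0.18 under quantile normalization), Eno1 (0.18, normexp), Igf2r (-0.045), Prim1 (-0.015) and Fabp3 (-0.076) under median scaling, and Fabp3 (-0.10) under quantile normalization. With the median over probes they turned for Sall4 (0.087), Slc38a1 (-0.76) and Prdx6 (-0.36). List medians less that of all genes turned for lipid droplet and fatty acid handling (-0.21 normexp, -0.0070 quantile), proteasome (-0.081) and respiratory chain (-0.034) under normexp, glycolysis (0.14) and germ line genes (-0.034) without the low-signal arrays, and Y-linked genes, nearly all on the floor (1.57 normexp, 0.31 median scaling, 2.83 authors' table). Over the planned settings, the replicate block among them, named genes kept their direction and side of the threshold in 2669 cases, lost a call in 431, gained one in 27 and turned in 9. The causes were not tested. Values on the floor limit what low signals can show.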
